A study of Mus musculus with 2 samples.

Results

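A list of 40 genes of ceramide, sphingomyelin and sphingosine 1-phosphate (S1P) metabolism and signalling was examined in hindlimb skeletal muscle of Syn4 transgenic and wild-type mice. The members were taken from a written list and found on the array through the platform's gene annotation, by name and not by a value; the list itself was drawn up with earlier results of these arrays known. All 40 were on the array: 39 had at least 1 probe set of their own, among 19938 such genes in all, and Cers1 shared its only probe set with Gdf1. Both groups were male C57BL/6J mice on standard chow. The Syn4 transgenic group carries a transgene that overexpresses syntaxin 4, a plasma membrane protein of vesicle fusion, and the other group is wild type. The promoter of the transgene, the age of the mice, how many mice stand behind an array and whether RNA was pooled were not given in the sources used here. Each genotype was measured on 1 whole-transcript array, so no value below has an error, no difference was tested, and none can be set against the spread between mice.

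Sphingolipids are built on a sphingoid base that serine palmitoyltransferase makes from serine and palmitoyl-CoA. Ceramide, the hub of the pathway, can be turned into sphingomyelin, glucosylceramide or ceramide 1-phosphate, or cleaved to sphingosine, which kinases phosphorylate to S1P. S1P leaves the cell through dedicated transporters and acts on G protein-coupled receptors that guide lymphocyte egress and vascular integrity. In skeletal muscle, ceramide is known as an antagonist of insulin signalling through AKT, and S1P as an activator of satellite cells.

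Values are log2 intensities as deposited, and each difference is Syn4 transgenic minus wild type on that scale. Levels of different probe sets are not set against each other, since probes differ in brightness. A gene passed the level filter when its brighter array read at least 6.79, which is the gene-wide median of the brighter reading, and 9974 genes did. Genes that passed the filter and differed by 1.5-fold or more (0.585 in log2 units) were counted as past the rule of size. The 95th percentile of 1027 olfactory receptor genes, 5.42, serves as a mark for a dim probe set. The transgene's own gene, Stx4a, read 12.20 in Syn4 transgenic and 8.84 in wild-type muscle, a difference of 3.36. Defining markers of muscle fibres were bright in both arrays: 10 genes that include Acta1 and Ckm spanned 13.25 to 14.45 in Syn4 transgenic and 13.11 to 14.44 in wild-type muscle, with differences from -0.15 for Myh2 to 0.36 for Myh1.

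Most sphingolipid and S1P genes had similar levels in both arrays, and 2 stood past the rule of size. Spns2, an S1P exporter, was 2.35-fold lower in Syn4 transgenic muscle, and Cers6, a ceramide synthase, was 1.74-fold higher. Among the members, 26 passed the level filter and these 2 make up 7.69% of them, where 4.37% of all genes that passed it were called in either direction. By direction, the background was 2.66% for genes 1.5-fold higher and 1.71% for genes 1.5-fold lower, against 1 member each. At 2-fold only Spns2 was called, and the background was 1.24%. At a smaller threshold of 0.322 in log2 units the members called were again Spns2 and Cers6 and no others, which is 7.69% of the 26, where 17.2% of all genes were called; Sptlc2, at 0.32, fell just short. With so few members called, the share at 1.5-fold is not a result about the list.

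Over all 39 measured members the median difference was 0.02, with 21 genes above 0 and 18 below. Over all genes the median was 0.00. The median size of the difference, sign left aside, was 0.14 for the members and 0.14 for all genes, and 26 of the 39 members (66.7%) differed by under 0.2, as did 64.5% of all genes. Both arrays read Sptlc3 and Cers3 at or under the olfactory receptor mark, which was the case for 2 members (5.1%) and for 28.4% of all genes.

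**Figure D1:**
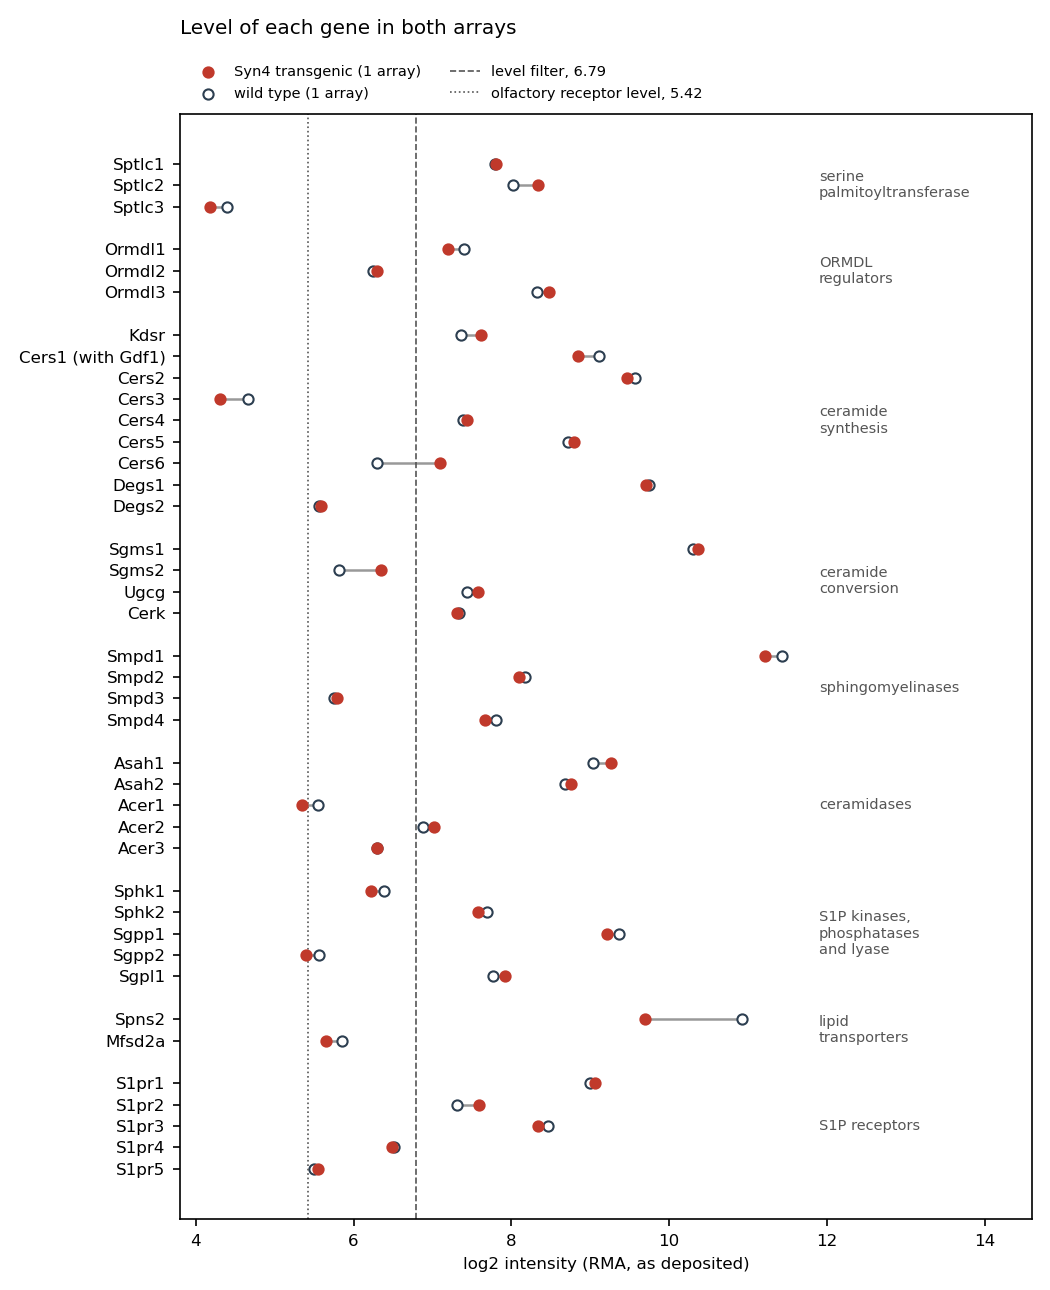
Log2 intensity (horizontal axis) of each sphingolipid and S1P gene in Syn4 transgenic muscle (filled points) and the wild-type array (open points), 1 array each, grouped by role. The points of Spns2 (9.69 in Syn4 transgenic against 10.92 in wild-type muscle) and Cers6 (7.10 in Syn4 transgenic against 6.30 in wild-type muscle) lie farthest apart, while most other pairs nearly coincide.

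**Figure D2:**
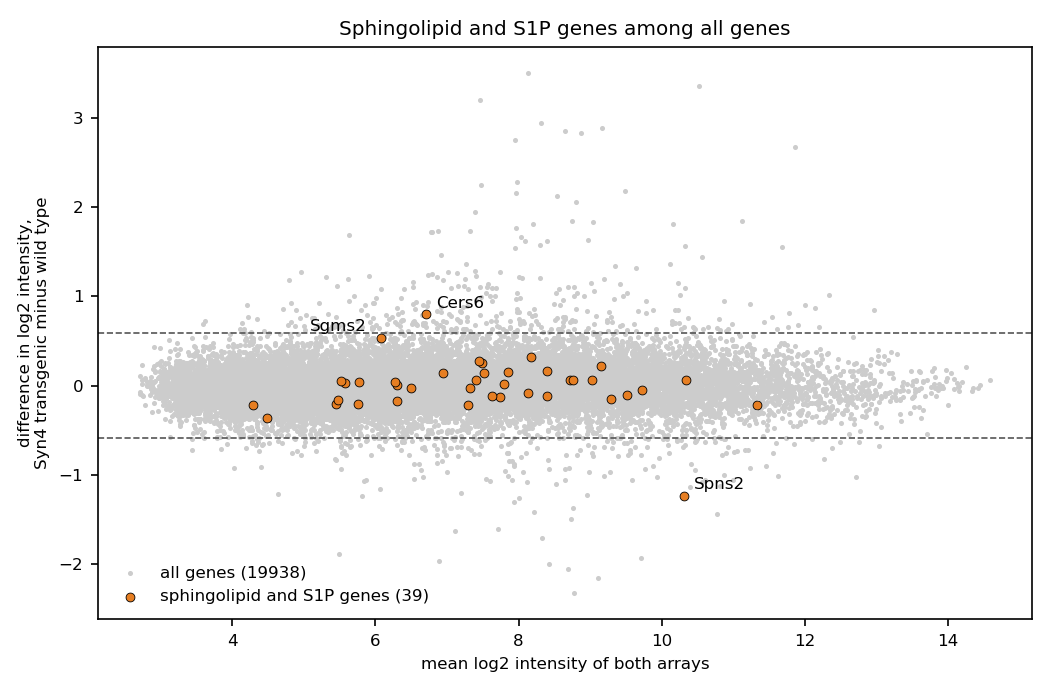
Difference in log2 intensity (vertical axis, Syn4 transgenic minus wild type) against the mean log2 intensity of both arrays for all 19938 genes (grey) and the 39 measured sphingolipid and S1P genes (orange), with dashed lines at 1.5-fold. Spns2 at -1.23 lies far below the lower line, Cers6 at 0.80 lies above the upper line, and Sgms2 at 0.54 lies just inside it.

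Spns2 encodes a transporter of the major facilitator superfamily that exports S1P, known in mouse from endothelial cells, where it feeds S1P to lymph and blood. Its probe set read 9.69 in Syn4 transgenic and 10.92 in wild-type muscle, a difference of -1.23. Both values lie well above the level filter. Spns2 ranked 16th from the lowest among the 9974 genes. Of 992 other genes whose higher value lay within 0.5 of that of Spns2, 30 (3.02%) were lower by at least 1.5-fold. In bulk tissue, fewer cells of a type and less RNA per cell cannot be told apart.

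The genes next to Spns2 on chromosome 11, which were looked up after the values were seen, did not share its difference. Mybbp1a, whose annotated end overlaps that of Spns2, differed by 0.15, and Spns3, the paralog on the other side, by -0.06. The next genes on each side, Ggt6 and Ube2g1, differed by -0.13 and 0.08, and beyond them Smtnl2 and Ankfy1 by -0.06 and 0.21. Spns3 and Ggt6 were under the level filter. Spns1, a further paralog that exports lysophospholipids from lysosomes, read 8.10 in Syn4 transgenic and 8.14 in wild-type muscle.

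Cers6 makes ceramides with a C16 acyl chain, the species linked in obese mice to loss of insulin sensitivity. Its probe set read 7.10 in Syn4 transgenic and 6.30 in wild-type muscle, a difference of 0.80. The wild-type value is under the level filter, so Cers6 passed the filter only through the array in which it was higher, and the fold rests on a dim value. Cers6 ranked 131st from the highest of the 9974 genes. Among the genes that passed the level filter, 2193 others had a higher value within 0.5 of that of Cers6. The filter cut this window off below 6.79. Of these genes, 52 (2.37%) were higher by at least 1.5-fold. Of the 3 nearest measured genes on each side of Cers6 on chromosome 2, also looked up after the values were seen, Stk39 alone passed the level filter, and it too was higher, at 7.76 in Syn4 transgenic and 7.23 in wild-type muscle (0.53, short of 1.5-fold). The other genes on that side of Cers6, 4933409G03Rik and 4932414N04Rik, differed by 0.38 and -0.05. On the opposite side Nostrin differed by 0.17, Spc25 by -0.11 and G6pc2 by 0.13.

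The letters upstream of annotated starts of these 2 genes are shown because Spns2 and Cers6 were the members past the rule of size, 1 in each direction. Each run is the 250 bases before a RefSeq start on GRCm38.p6, written 5′ to 3′ on the gene's strand, and capitals mark letters of the motifs searched on both strands: the TATA box (TATAAA), the CCAAT box (CCAAT), the GC box (GGGCGG) and the E box (CANNTG). Both windows lie inside the annotated span of their gene, so other annotated starts lie farther upstream.
Spns2, chr11:72475028-72475277, minus strand: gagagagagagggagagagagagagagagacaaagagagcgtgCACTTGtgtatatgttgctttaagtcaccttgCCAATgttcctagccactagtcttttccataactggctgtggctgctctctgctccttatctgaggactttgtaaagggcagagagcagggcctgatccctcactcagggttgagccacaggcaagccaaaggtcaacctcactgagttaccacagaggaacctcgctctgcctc
Cers6, chr2:68861191-68861440, plus strand: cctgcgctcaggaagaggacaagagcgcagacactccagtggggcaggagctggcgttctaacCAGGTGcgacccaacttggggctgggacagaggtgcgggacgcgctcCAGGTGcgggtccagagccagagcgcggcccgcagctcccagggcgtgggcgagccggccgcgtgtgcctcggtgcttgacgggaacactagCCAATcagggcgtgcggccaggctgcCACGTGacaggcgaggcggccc
The Spns2 window opens with a run of GA repeats and holds 2 CG pairs, 1 CCAAT and 1 CANNTG. The Cers6 window holds 23 CG pairs, 1 CCAAT and 3 CANNTG. Neither holds TATAAA or GGGCGG. Among 21262 such windows of protein-coding genes, the median was 10 CG pairs, 22.6% held no more than the Spns2 window and 17.4% held at least as many as the Cers6 window. RefSeq windows were matched for 37 of the 40 members, and these had 52 windows with a median of 16 CG pairs and a range of 0 to 43. CCAAT was found in 30.8% of the members' windows and in 35.4% of all, and CANNTG in 67.3% of the members' and 62.8% of all. GGGCGG was in 50.0% of the members' windows and in 42.6% of all, and TATAAA in 1.9% of the members' and 11.6% of all. Several windows of 1 gene can overlap. The array does not tell which start was used, and a match of letters is not a binding site.

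The subunits of serine palmitoyltransferase, which catalyses the committed step, differed little. The shared subunit Sptlc1 read 7.81 in Syn4 transgenic and 7.79 in wild-type muscle. The catalytic subunit Sptlc2 read 8.34 in Syn4 transgenic and 8.02 in wild-type muscle, a difference of 0.32, the largest positive one among the members that passed the filter after Cers6. Sptlc3, the alternative catalytic subunit, was dim in both arrays at 4.18 in Syn4 transgenic and 4.39 in wild-type muscle. The ORMDL proteins restrain this enzyme when ceramide is plentiful, and their genes did not differ in a common direction. Ormdl1 read 7.19 in Syn4 transgenic and 7.40 in wild-type muscle. Ormdl3 read 8.48 in Syn4 transgenic and 8.32 in wild-type muscle, and Ormdl2, under the filter, read 6.29 in Syn4 transgenic and 6.25 in wild-type muscle.

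Genes of the steps from the sphingoid base to ceramide were near equal apart from Cers6. Kdsr, which reduces the product of serine palmitoyltransferase, read 7.62 in Syn4 transgenic and 7.36 in wild-type muscle, a difference of 0.26. Degs1, the desaturase that turns dihydroceramide into ceramide, read 9.70 in Syn4 transgenic and 9.75 in wild-type muscle. Its paralog Degs2, which also makes phytoceramide, was under the filter at 5.59 in Syn4 transgenic and 5.56 in wild-type muscle. The ceramide synthases each attach acyl chains of a preferred length, and the other measured members of this family did not share the difference of Cers6. Cers5, which like Cers6 makes C16 ceramides, read 8.79 in Syn4 transgenic and 8.72 in wild-type muscle. Cers2, the synthase for very long chains, read 9.47 in Syn4 transgenic and 9.57 in wild-type muscle, and Cers4 read 7.44 in Syn4 transgenic and 7.38 in wild-type muscle. Cers3, known for the ultra-long ceramides of the skin barrier, was dim at 4.30 in Syn4 transgenic and 4.66 in wild-type muscle. The probe set annotated to both Cers1, the C18 synthase known from muscle and brain, and Gdf1 read 8.85 in Syn4 transgenic and 9.11 in wild-type muscle. Its difference of -0.26 cannot be assigned to either gene, and it is left out of the counts.

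Of the 4 genes that convert ceramide, Sgms2 had the largest difference. Sgms2, the sphingomyelin synthase of the plasma membrane, read 6.35 in Syn4 transgenic and 5.81 in wild-type muscle, a difference of 0.54 that stayed short of both the rule of size and the level filter. Sgms1, the sphingomyelin synthase of the Golgi, was at 10.37 in Syn4 transgenic and 10.30 in wild-type muscle. Ugcg, the glucosylceramide synthase, was at 7.58 in Syn4 transgenic and 7.44 in wild-type muscle, and Cerk, ceramide kinase, at 7.31 in Syn4 transgenic and 7.33 in wild-type muscle. The last 3 were thus within 0.14 of equal.

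Sphingomyelinases return sphingomyelin to ceramide, and none of the 4 genes reached 1.5-fold. Smpd1, the acid lysosomal enzyme, read 11.22 in Syn4 transgenic and 11.43 in wild-type muscle, a difference of -0.21. Smpd2 read 8.09 in Syn4 transgenic and 8.17 in wild-type muscle, and Smpd4 read 7.67 in Syn4 transgenic and 7.80 in wild-type muscle. The 3 members that passed the filter were all lower in Syn4 transgenic muscle, by 0.08 to 0.21. Of the 9974 genes that passed it, 4409 were below 0, and the median size of the difference was 0.15. With 3 genes, the shared direction is not a result about the sphingomyelinases. Smpd3, the neutral enzyme known from bone and brain, was under the filter at 5.79 in Syn4 transgenic and 5.75 in wild-type muscle.

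Ceramidases cleave ceramide to sphingosine, and the 3 that passed the filter were slightly higher in Syn4 transgenic muscle. Of all genes that passed it, 53.5% were above 0, and the median size of the difference was 0.15. A shared direction of 3 genes is not a result about the ceramidases. Asah1, the acid ceramidase of lysosomes, read 9.26 in Syn4 transgenic and 9.04 in wild-type muscle, a difference of 0.22. Asah2, the neutral ceramidase, read 8.75 in Syn4 transgenic and 8.68 in wild-type muscle. Acer2, the alkaline ceramidase of the Golgi, read 7.02 in Syn4 transgenic and 6.88 in wild-type muscle on its brighter probe set and 5.04 in both arrays on its other one. The remaining alkaline ceramidases were under the filter. Acer1, known from epidermis, read 5.35 in Syn4 transgenic and 5.55 in wild-type muscle, and Acer3 read 6.30 in Syn4 transgenic and 6.29 in wild-type muscle.

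The enzymes that make and break S1P lay within 0.17 of equal, with 4 of the 5 genes lower in Syn4 transgenic muscle. Among all 19938 genes, 9889 were below 0. Sphk1, an inducible sphingosine kinase, was under the filter at 6.22 in Syn4 transgenic and 6.39 in wild-type muscle. Sphk2, the kinase also found in nuclei and mitochondria, read 7.58 in Syn4 transgenic and 7.69 in wild-type muscle. Sgpp1, which dephosphorylates S1P, read 9.21 in Syn4 transgenic and 9.36 in wild-type muscle. Its paralog Sgpp2 was under the filter at 5.40 in Syn4 transgenic and 5.56 in wild-type muscle. Sgpl1, the lyase that degrades S1P irreversibly, was the exception, at 7.92 in Syn4 transgenic and 7.77 in wild-type muscle.

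The S1P receptors did not share the difference of the exporter Spns2. S1pr1, the receptor that lymphocytes follow out of lymphoid organs and that endothelial cells also carry, read 9.06 in Syn4 transgenic and 9.00 in wild-type muscle. S1pr2, a further receptor of the family, read 7.59 in Syn4 transgenic and 7.31 in wild-type muscle, a difference of 0.28. S1pr3, a receptor of vascular and satellite cells, read 8.34 in Syn4 transgenic and 8.46 in wild-type muscle. The receptors known mainly from blood cells and from oligodendrocytes and natural killer cells were under the filter. S1pr4 read 6.48 in Syn4 transgenic and 6.51 in wild-type muscle, and S1pr5 read 5.55 in Syn4 transgenic and 5.50 in wild-type muscle. Mfsd2a, which imports lysophosphatidylcholine with long polyunsaturated chains and is the other transporter on the list, was also under the filter at 5.65 in Syn4 transgenic and 5.85 in wild-type muscle.

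**Figure D3:**
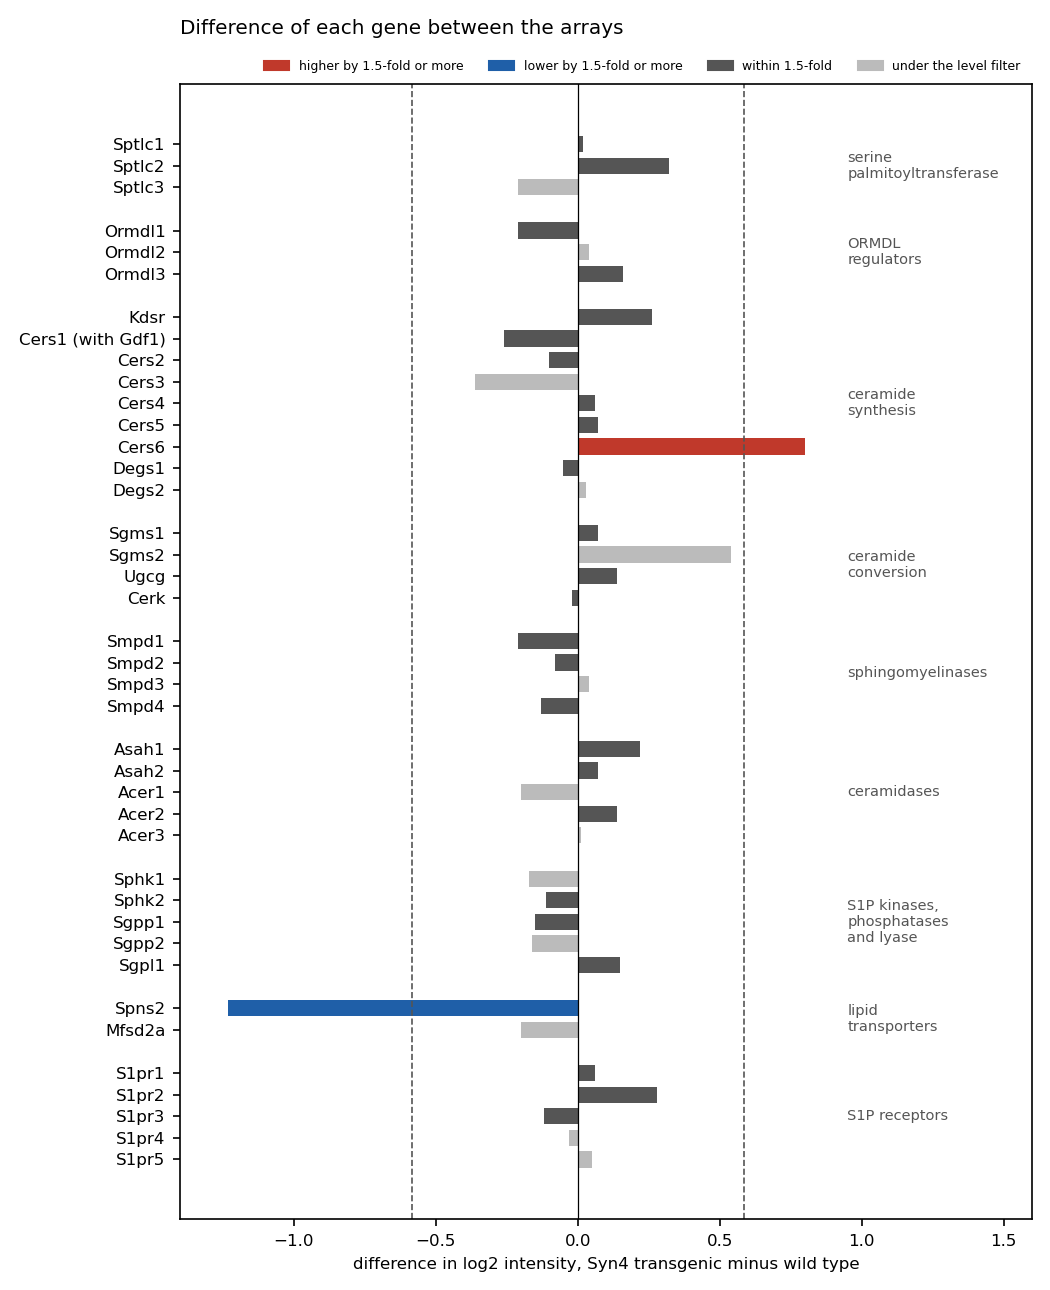
Difference in log2 intensity (horizontal axis, Syn4 transgenic minus wild type, 1 array each) of each gene, grouped by role, with dashed lines at 1.5-fold and light grey bars for genes under the level filter. Only the bars of Spns2 (-1.23) and Cers6 (0.80) cross a dashed line, and the S1P kinases, phosphatases and lyase stay within 0.17 of 0.

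Beyond the members, 6 lists of neighbouring pathways held 80 measured genes, of which 58 passed the filter, 5 were higher and 1 was lower by at least 1.5-fold, with a median difference of 0.02. The 6 genes are 10.3% of the 58, where 4.37% of all genes that passed the filter were called; the lists were drawn up with earlier results known, and nothing is read from that share. Among 11 genes of glycosphingolipid and sulfatide synthesis, St3gal5, which makes the ganglioside GM3, was 1.71-fold lower, at 10.46 in Syn4 transgenic and 11.23 in wild-type muscle. St8sia5, a sialyltransferase that acts on gangliosides further along, stayed just within the rule of size, at 10.04 in Syn4 transgenic and 10.60 in wild-type muscle (-0.56). Ugt8a, which makes galactosylceramide for myelin, had the highest difference of that list, 0.98, but was under the filter at 6.50 in Syn4 transgenic and 5.52 in wild-type muscle. The list's median was 0.02.

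Among 17 measured genes of lysosomal and other sphingolipid breakdown, 12 were above 0 and 4 below, with a median of 0.04. Over all genes 46.9% were above 0. Smpdl3b, a membrane-anchored relative of acid sphingomyelinase, was 1.67-fold higher, at 7.53 in Syn4 transgenic and 6.79 in wild-type muscle, and Neu4, a sialidase, was lowest at -0.29 and under the filter. Among 22 genes of acyl chain supply, small subunits and ceramide transfer, 9 were above 0 and 13 below, with a median of -0.07. The dehydratases of the fatty acid elongation cycle Hacd2 and Hacd3 passed the rule of size, Hacd2 at 8.64 in Syn4 transgenic and 7.98 in wild-type muscle, and Hacd3 at 7.90 in Syn4 transgenic and 7.31 in wild-type muscle. A further probe set of Hacd2 differed by 0.46, short of 1.5-fold. Cptp, which transfers ceramide 1-phosphate, was lowest at -0.57.

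Carriers, other exporters and lipid phosphate phosphatases of the S1P system showed no gene past 1.5-fold. Their 10 measured genes had a median of -0.05 and ran from -0.19 for Plpp1, a lipid phosphate phosphatase, to 0.34 for Abcc1, an ABC transporter that can carry S1P. Of these 10, only 7 passed the level filter and could be called. Apom and Mfsd2b lay at or under the olfactory receptor mark in both arrays, as did 28.4% of all genes. Their small differences carry little information. The 5 measured genes of lysophosphatidic acid signalling ran from -0.18 for Lpar6 to 0.06 for Lpar2, which are receptors of that lipid, with a median of -0.06. Of these 5, only 3 passed the level filter. Lpar2 and Lpar3 lay at or under the olfactory receptor mark in both arrays. Among 15 measured genes of the G proteins and effectors downstream of S1P receptors, 12 were above 0 and 3 below, with a median of 0.13. All 15 passed the filter, and of all genes that did, 53.5% were above 0, with a median of 0.03. The 2 genes past 1.5-fold, both higher, are 13.3% of the list, where 2.66% of all genes that passed were higher. The list was drawn up with earlier results known, and nothing is read from these shares. Ccn1, a matricellular gene induced by acute stimuli, was 2.22-fold higher at 10.80 in Syn4 transgenic and 9.65 in wild-type muscle. Gnai1, an inhibitory G protein subunit, was 1.66-fold higher at 8.24 in Syn4 transgenic and 7.51 in wild-type muscle. Rac1, a small GTPase, was lowest at -0.06.

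Markers of several other cell types moved in the same arrays, and their part in the differences of Spns2 and Cers6 was not tested. Genes of endothelial cells, which are known to make Spns2 and S1pr1, were near equal: 13 of 13 passed the filter, they spanned 7.51 to 10.99 in Syn4 transgenic and 7.59 to 10.97 in wild-type muscle, and their differences ran from -0.44 for Kdr to 0.32 for Vwf with a median of -0.02. Of 4 measured lymphatic endothelial genes, Prox1, a transcription factor that slow fibres also make, was 1.65-fold lower (-0.72). Prox1 read 6.33 in Syn4 transgenic and 7.05 in wild-type muscle, so it passed the level filter only through the wild-type array. Flt4 was highest at 0.09, and the median was -0.13. The 4 genes spanned 6.33 to 8.20 in Syn4 transgenic and 7.05 to 8.21 in wild-type muscle.

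Slow fibre genes were lower in Syn4 transgenic muscle. All 10 differed below 0, 9 of them by at least 1.5-fold (Myh7, Myl2, Myl3, Tnnc1, Tnni1, Tnnt1, Tpm3, Atp2a2 and Csrp3), from -1.02 for Myl3 to -0.42 for Myoz2, and they spanned 10.29 to 12.70 in Syn4 transgenic and 10.92 to 13.37 in wild-type muscle. White adipocyte genes were higher in Syn4 transgenic muscle. All 10 measured ones were above 0, 7 of them by at least 1.5-fold (Lep, Adipoq, Cidec, Plin1, Retn, Pck1 and Slc7a10), from 0.22 for Fabp4 to 3.20 for Lep, and they spanned 6.98 to 11.42 in Syn4 transgenic and 5.86 to 11.20 in wild-type muscle. In wild-type muscle Lep (5.86), Pck1 (6.59) and Slc7a10 (6.12) were under the level filter. These genes passed it only through the array in which they were higher. Under the same rule, the background among the 9974 genes past the level filter was 1.71% in the lower direction and 2.66% in the higher one. By sign alone, 4409 of these 9974 genes lay below 0 and 53.5% lay above it. The slow fibre and white adipocyte lists, like the others, were drawn up with earlier results of the same arrays known. Their shares were not tested against this background.

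Other markers had smaller median differences. All 7 fibroblast genes and all 6 measured Schwann cell genes were above 0. The 7 fibroblast genes passed the filter, as did 4 of the 6 Schwann cell genes. Of all genes that passed it, 53.5% were above 0, and of all genes 46.9%. These lists too were drawn up with earlier results known, and nothing is read from the shared direction. Fibroblast genes had a median of 0.23 over 7, led by Lum (0.74) and Lox (0.63), with Dcn lowest at 0.14, and spanned 8.48 to 13.29 in Syn4 transgenic and 7.85 to 13.15 in wild-type muscle. Smooth muscle and pericyte genes had a median of 0.24 over 7, from -0.34 for Kcnj8 to 0.88 for Cnn1, spanning 7.35 to 11.00 in Syn4 transgenic and 6.47 to 11.06 in wild-type muscle. Genes of Schwann cells, which are known to make Ugt8a, had a median of 0.46 over 6, from 0.09 for Sox10 to 1.08 for Egr2, with Ncmap at 0.90 but under the filter, spanning 6.24 to 11.64 in Syn4 transgenic and 5.41 to 11.24 in wild-type muscle. Macrophage genes had a median of 0.17 over 9, from -0.12 for Adgre1 to 0.25 for C1qa. They spanned 5.86 to 8.51 in Syn4 transgenic and 5.71 to 8.34 in wild-type muscle. Cnn1 and Egr2 were under the level filter in wild-type muscle, at 6.47 and 5.86, and passed it only through the Syn4 transgenic array.

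Markers of lymphocytes and skin were under the level filter. None of the 10 measured lymphocyte genes passed the filter, 6 of them lay at or under the olfactory receptor mark in both arrays, and they ran from -0.36 for Nkg7 to 0.22 for Gzma. None of the 7 measured keratinocyte genes passed it, and they ran from -0.42 for Lor to 0.12 for Krt1. Of 3 measured red blood cell genes, Alas2 passed the filter at 7.60 in Syn4 transgenic and 7.32 in wild-type muscle (0.28), and the others did not, with Slc4a1 lowest at -0.11.

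**Figure D4:**
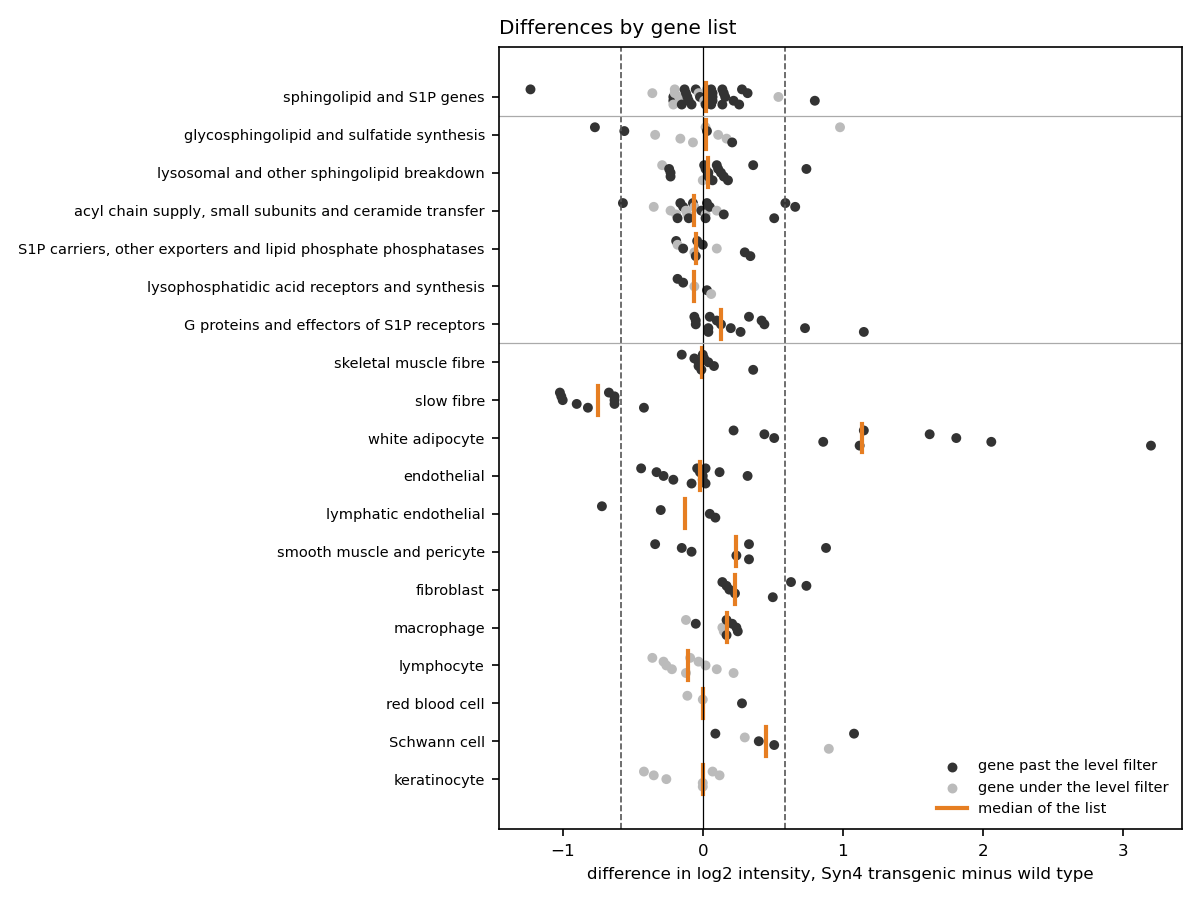
Differences in log2 intensity (horizontal axis, Syn4 transgenic minus wild type, 1 array each) of single genes (points) by list, with list medians in orange and dashed lines at 1.5-fold. The sphingolipid and S1P genes centre at 0.02, slow fibre genes at -0.75 and white adipocyte genes at 1.14.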

How the data were processed

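Total RNA of hindlimb muscle was measured on 1 array per genotype. The authors deposited log2 intensities of 35556 probe sets, made with RMA in Partek per the submitters' processing notes; the genome build of the array design, like versions and settings, was not given in the sources used here. Its summary step shrinks large ratios and gives no call above background. Both arrays had a median of 6.06. The number of arrays limits the precision.

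Gene names came from the platform annotation: 21789 probe sets carried 1 symbol, 1621 several and 12146 none. Entrez identifiers matched 21698 of those with 1 symbol to RefSeq genes of GRCm38.p6 and changed 0 symbols. For 999 genes with over 1 probe set the brightest stood for the gene. Differences and counts were computed with Python 3.11.15, numpy 2.4.6 and pandas 2.3.3, and checked on simulated data. No test was possible.

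The members and lists were chosen with earlier results of these data known. All members are named, and of every other list the genes past 1.5-fold, the highest and the lowest. Other genes named were chosen after their values were seen. Alternatives changed the level filter, the fold, the handling of probe sets and the scaling (centring, loess with span 0.3, quantile normalization).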

Additional observations from a re-analysis of the deposited data

How the results depend on the processing

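Across the alternatives listed under processing, Spns2 passed every fold and filter tried. Cers6 was lost when both values had to reach the level of 6.79 and at 2-fold, which left 1 member in all and 0 in the higher direction in each case; no test was possible in either setting, 2.13% of all genes were higher by 1.5-fold under the filter on both values, and 0.86% were higher by 2-fold. The median over the members ran from -0.005 with quantile normalization to 0.06 with the filter on both values. Of 195 recomputed differences of the 39 members, all moved by under 0.1 and the largest move was 0.07. Most of these could hardly move. Median centring could change none, since both arrays had a median of 6.06. Averaging probe sets could change only Acer2, which went from 0.14 to 0.07. Adding probe sets that name several genes changed no member. Only loess and quantile normalization thus bore on the other members. Signs changed for Sptlc1 (-0.01 after loess and -0.04 after quantile normalization) and Acer3 (-0.005 after quantile normalization), which differed by 0.02 and 0.01 as deposited. No paired analysis was possible because each group has 1 array. Without replicates or calls above background, values near or under 5.42, such as those of Sptlc3, Cers3, Acer1 and Sgpp2, carry little information on a difference.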
